A study of Rattus norvegicus with 12 samples.

Results

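Gene expression in the preoptic area of female rats given zebularine was set against that of male rats given vehicle, to ask whether females whose DNA methyltransferases (DNMT) had been inhibited came to resemble untreated males. The comparison uses 6 of the 12 RNA-seq libraries of the series, chosen by their labels: 3 from zebularine-treated females and 3 from vehicle-treated males. Pups of both groups received their treatment on the day of birth (day 0) and on day 1, and the preoptic area was collected on day 2. The vehicle contained saline and 0.1% DNMSO, as the labels name the solvent. The other 6 libraries, from vehicle females and zebularine males, are used for reference. Sex and treatment both differ between the compared groups, so a difference between them cannot be assigned to either from these 6 libraries alone. The labels give no dose or strain and do not say whether a library came from 1 animal or a pool, so the p-values reflect only how much these libraries varied, and part of that spread may be technical.

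The preoptic area, at the front of the hypothalamus, governs male sexual behaviour and differs by sex in its cells and synapses. In male rodents, testosterone from the testes is converted to oestradiol in the brain around birth and sets the male form, and in its absence the female form develops. DNMT enzymes place methyl groups on cytosines, which commonly goes with silencing of nearby genes. Zebularine is a cytidine analogue that traps these enzymes.

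Reads assigned to genes numbered 21286563, 24157412 and 21372298 in zebularine females and 23015048, 27745882 and 29922364 in vehicle males, and between 15851598 and 30474857 in the other 6 libraries. Levels are in RPKM, reads per kilobase of gene model corrected for the depth of the library. At the median gene model length, 3 reads, the fewest taken as detection here, correspond to between 0.0629 and 0.0884 RPKM in the 6 libraries, for counting error only. Genes were kept where at least 3 of the 6 libraries reached 0.5 RPKM, which left 15774. The files carry Ensembl identifiers without symbols, and each gene is therefore followed by its identifier. For that reason markers of the preoptic area, of other cell types and of the Y chromosome were not examined. In bulk tissue, fewer cells of a type and less RNA per cell cannot be told apart.

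As whole profiles, zebularine females stood no nearer to vehicle males than to vehicle females. Distance was taken as the root mean square difference of log2(RPKM + 0.5) over the 15774 genes. The mean distance was 0.403 over the 9 pairs of a zebularine female and a vehicle male library, from 0.318 to 0.519. Zebularine females lay at 0.384 from vehicle females, from 0.307 to 0.498. The vehicle groups lay at 0.320 from each other, close to the 0.330 within vehicle males and the 0.330 within vehicle females. This distance thus did not separate the sexes under vehicle, and so it cannot tell whether zebularine females had moved towards males. Each of the 3 zebularine female libraries was farther from the mean profile of vehicle males than from that of vehicle females. For replicate 1 these distances were 0.295 and 0.278. For replicate 2 they were 0.285 and 0.269, and for replicate 3 they were 0.479 and 0.449. The order was the same in all 3 without the genes that passed the test described next, at 0.283 and 0.273, 0.271 and 0.262, and 0.467 and 0.442. Pairs share libraries, so these distances are given without a test.

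**Figure D1:**
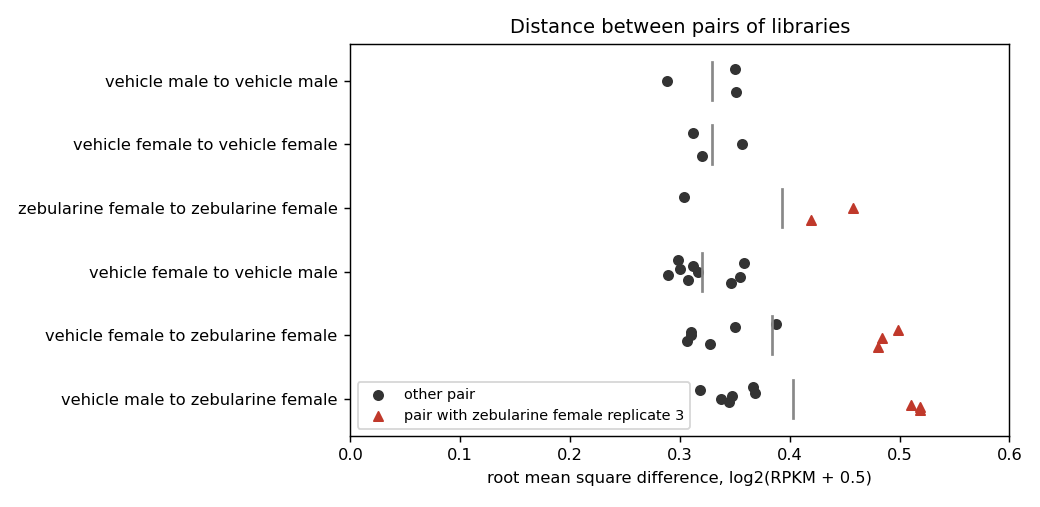
Each point is 1 pair of libraries, placed by the root mean square difference of log2(RPKM + 0.5) over 15774 genes, and grey lines are means over the pairs of a row. Pairs that contain zebularine female replicate 3 (triangles) lie to the right, and the other pairs of zebularine females with vehicle males lie between 0.318 and 0.368.

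Zebularine female replicate 3 stood apart. At least 2-fold above the vehicle male mean lay 646 of its genes (on the log2(RPKM + 0.5) scale), with 117 at least 2-fold below. Replicate 1 had 120 above and 135 below, and replicate 2 had 125 and 106. Over the same 15774 genes, the pairs without replicate 3 had a mean distance of 0.347 to vehicle males and 0.332 to vehicle females.

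Gene by gene, 18 of the 15774 genes were higher in zebularine females than in vehicle males and none was lower. The test was limma on log2(RPKM + 0.5), fitted over all 12 libraries and adjusted by the Benjamini-Hochberg method with a threshold of 0.05. The 18 genes are 0.114% of those tested. Their log2 differences ran from 0.63 to 7.03 with a median of 1.60, against 0.0033 as the median of all tested genes, and 14 of them differed at least 2-fold. Their median level was 0.825 RPKM in vehicle males, against 8.62 RPKM for all tested genes, and 5.53 RPKM in zebularine females, against 8.83 RPKM. The vehicle male level helped to choose the genes, and 3 of the 18 passed the level filter through zebularine females alone, so these medians are a description. Their median gene model length was 1181 bases, against 2077 for all tested genes. In each of the 18 the zebularine female libraries lay above every vehicle male library. Over all tested genes such a separation was seen upward for 1202, or 7.62%, and downward for 615, or 3.9%, as deposited, and for 943 and 952 after quantile normalization.

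**Figure D2:**
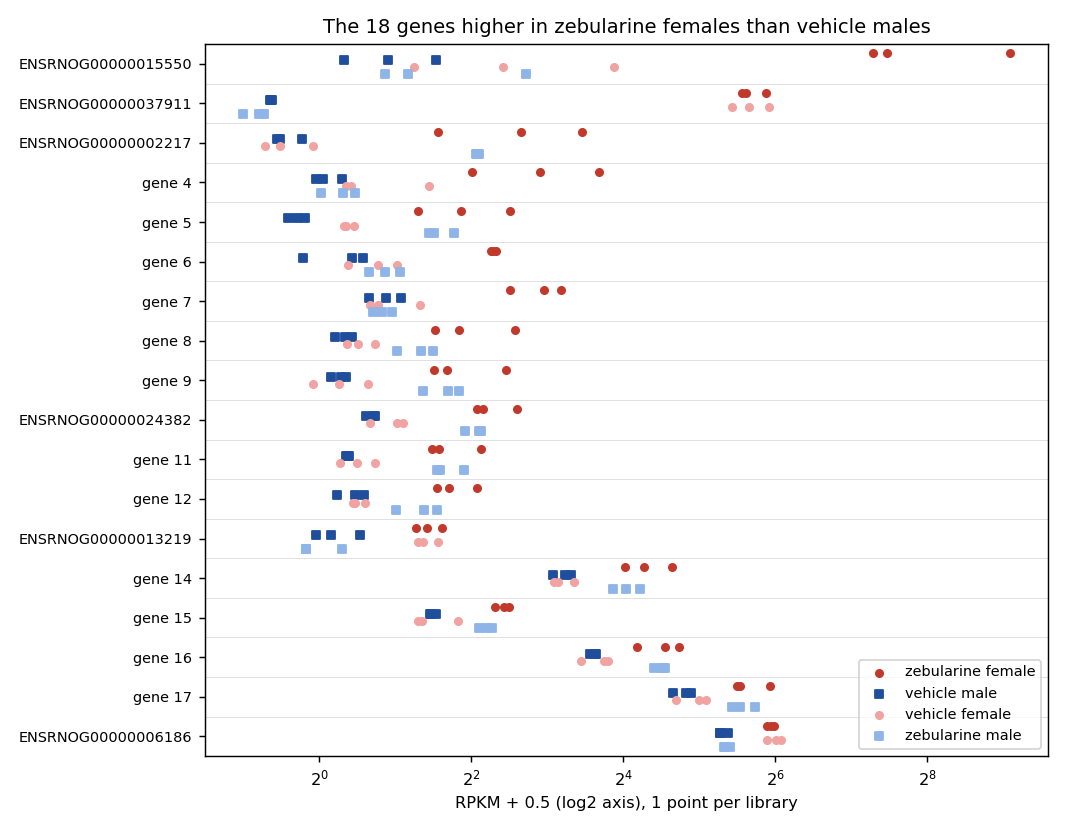
Level of each of the 18 genes in each of the 12 libraries as RPKM + 0.5 on a log2 axis, ordered from the largest log2 difference (top) to the smallest; genes not named in the text are numbered by rank. Dark red circles (zebularine females) lie to the right of dark blue squares (vehicle males) in every row, whereas the pale symbols of the other groups fall with one or the other depending on the gene.

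The 18 genes followed different patterns across the other groups. The crossed pair, zebularine males minus vehicle females, has none of the 6 libraries whose means gave the differences of the 18 genes. Its libraries did enter the estimate of spread by which the genes passed, so it is not independent of their choice. There the sex difference is turned round and the treatment difference is not. In the crossed pair 2 of the 18 genes passed by limma with Benjamini-Hochberg adjustment, both lower in zebularine males. At an unadjusted p under 0.05, 3 of the 18 were lower and 11 were higher in zebularine males, where 4.69% and 5.83% of all tested genes were lower and higher.

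The 3 genes lower in the crossed pair kept the order of the sexes whatever the treatment. ENSRNOG00000037911 was read at 48.5, 46.6 and 58.1 RPKM in zebularine females and at 0.146, 0.151 and 0.140 RPKM in vehicle males, on 4 or 5 reads in each male library. Vehicle females had 49.8, 42.4 and 59.7 RPKM, and zebularine males had 0, 2 and 2 reads. The 6 female libraries thus lay far above the 6 male libraries. The log2 difference between zebularine females and vehicle males was 6.31 ± 0.13 (SE, limma adjusted p = 5.66e-10), and that between vehicle females and vehicle males was 6.29 ± 0.13 (SE, limma adjusted p = 5.82e-10).

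ENSRNOG00000006186 was an abundant gene with a smaller step, at 62.7, 58.8 and 61.0 RPKM in zebularine females and 41.1, 38.2 and 38.1 RPKM in vehicle males. Vehicle females stood at 66.6, 59.0 and 63.6 RPKM and zebularine males at 39.4, 41.8 and 40.0 RPKM. No female library overlapped a male one. The log2 difference was 0.63 ± 0.06 (SE, limma adjusted p = 0.00169), beside 0.68 ± 0.06 (SE, limma adjusted p = 0.000763) between the vehicle groups. In the crossed pair, read in the other treatment of each sex, it was -0.63 ± 0.06 (SE, limma adjusted p = 0.00156).

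ENSRNOG00000013219, singled out after its values were seen, was the third. It lay at 2.56, 1.92 and 2.17 RPKM in zebularine females and at 0.614, 0.947 and 0.473 RPKM in vehicle males. Vehicle females were at 2.06, 2.46 and 1.97 RPKM and zebularine males at 0.729, 0.382 and 0.384 RPKM, so females again lay above males without overlap. Every female library lay above every male library in 36 of all tested genes, or 0.228%, and below in 26, or 0.165%. For ENSRNOG00000013219 the log2 difference of 1.22 ± 0.19 (SE) passed narrowly (limma adjusted p = 0.0431), on between 3 and 33 reads per library. It did not pass between the vehicle groups (log2 difference 1.19 ± 0.19, limma adjusted p = 0.293) or in the crossed pair (limma adjusted p = 0.0567). Over 24 alternative analyses it failed to pass in 16, with adjusted p from 0.00978 to 0.283.

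For these 3 genes zebularine females and vehicle females lay within their spread of each other. The difference of zebularine females from vehicle females had a 95% interval from -0.27 to 0.30 on the log2 scale for ENSRNOG00000037911. For ENSRNOG00000006186 it was -0.17 to 0.07, and for ENSRNOG00000013219 it was -0.39 to 0.44. None of these differences passed (limma adjusted p = 1.00 for each). These intervals rest on the vehicle female libraries, whose level also enters the sex difference under vehicle.

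Of the 15 other genes, 14 passed the level filter for the vehicle groups, and none of these passed the test between vehicle females and vehicle males. Their median log2 difference was 0.13, with a range from -0.01 to 1.59. Estimates were above 0 for 13 of the 14, as for 52.3% of all tested genes, and 2 of the 14, both higher in females, had an unadjusted limma p under 0.05. Against vehicle females, 7 of the 15 were also higher in zebularine females by limma with adjustment, and no other tested gene was, so that these 7 are the whole 0.0444%. The first of these comparisons has the same vehicle male libraries as the one that chose the genes, and the second has the same zebularine female libraries. Over all tested genes, 2 passed between the vehicle groups, or 0.0128%, and 309 had an unadjusted limma p under 0.05, or 1.97%.

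In 11 of the 15 genes zebularine males shared the higher level. Each of these 11 had all 6 zebularine libraries, of either sex, above all 6 vehicle libraries, a pattern seen in 164 of the 15774 genes, or 1.04%. The 11 were chosen as higher in zebularine females than vehicle males, then grouped by an unadjusted p under 0.05 in the crossed pair. Much of the pattern follows from that choice, and the 1.04% is not a like background for it. The median log2 difference of the 11 was 1.36 between zebularine females and vehicle males. It was 0.85 in the crossed pair, where the range was 0.64 to 2.52, and both are descriptions. None of the 11 passed in the crossed pair. The genes with the smallest p among those higher there, ENSRNOG00000024382 and ENSRNOG00000002217, are both among the 11 and were singled out after their values were seen.

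ENSRNOG00000024382 was at 3.72, 3.94 and 5.58 RPKM in zebularine females and at 1.16, 1.14 and 1.03 RPKM in vehicle males, which lie 1.59 ± 0.16 log2 units apart (SE, limma adjusted p = 0.00309). Zebularine males lay at 3.86, 3.79 and 3.29 RPKM and vehicle females at 1.64, 1.54 and 1.08 RPKM, 1.12 ± 0.16 apart (SE, limma adjusted p = 0.0796). The zebularine libraries of both sexes formed 1 band and the vehicle libraries another.

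ENSRNOG00000002217 was barely read in vehicle males, at 0.357, 0.197 and 0.183 RPKM on 4 to 6 reads, and reached 2.45, 5.78 and 10.4 RPKM in zebularine females. Zebularine males were tightly grouped at 3.69, 3.72 and 3.78 RPKM, and vehicle females lay at 0.108, 0.202 and 0.445 RPKM. The log2 difference was 2.98 ± 0.37 (SE, limma adjusted p = 0.0114) from vehicle males and 2.52 ± 0.37 (SE, limma adjusted p = 0.0796) in the crossed pair. It failed to pass in 4 of the 21 alternatives that tested it, with adjusted p up to 0.248.

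The remaining 4 genes had an unadjusted p of 0.05 or more in the crossed pair. In 7 of the 15 genes, among them these 4, the zebularine female libraries lay above the other 9. In the 4 genes the log2 differences from vehicle males ran from 2.01 to 7.03, and in the crossed pair from -0.93 to 0.14. Mean levels of the same 4 were 0.577 to 1.51 RPKM in vehicle males and 1.18 to 6.97 RPKM in vehicle females. They were 0.714 to 3.05 RPKM in zebularine males, against 4.39 to 292 RPKM in zebularine females. Over all tested genes, 233 had the 3 zebularine female libraries above the other 9, or 1.48%, and 46 had them below, or 0.292%. The 15 genes were chosen as higher in zebularine females than in vehicle males, so these shares are not a like background for the 7. Whether the female and male responses of these 4 genes differ was not tested here.

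ENSRNOG00000015550 was 7.03 ± 0.71 log2 units higher in zebularine females than in vehicle males (SE, limma adjusted p = 0.00309), and its 95% interval ran from 5.47 to 8.58. This was the largest at a pseudocount of 0.5, but at 0.1 ENSRNOG00000037911 was larger, at 7.69 against 7.40. It stood at 156, 177 and 543 RPKM in zebularine females and at 2.40, 1.38 and 0.749 RPKM in vehicle males. Vehicle females spread from 1.86 to 14.2 RPKM, with 4.86 RPKM between, and zebularine males were at 6.10, 1.75 and 1.32 RPKM. Replicate 3 held the highest value in each female group. The log2 difference was 6.46 without zebularine female replicate 3.

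**Figure D3:**
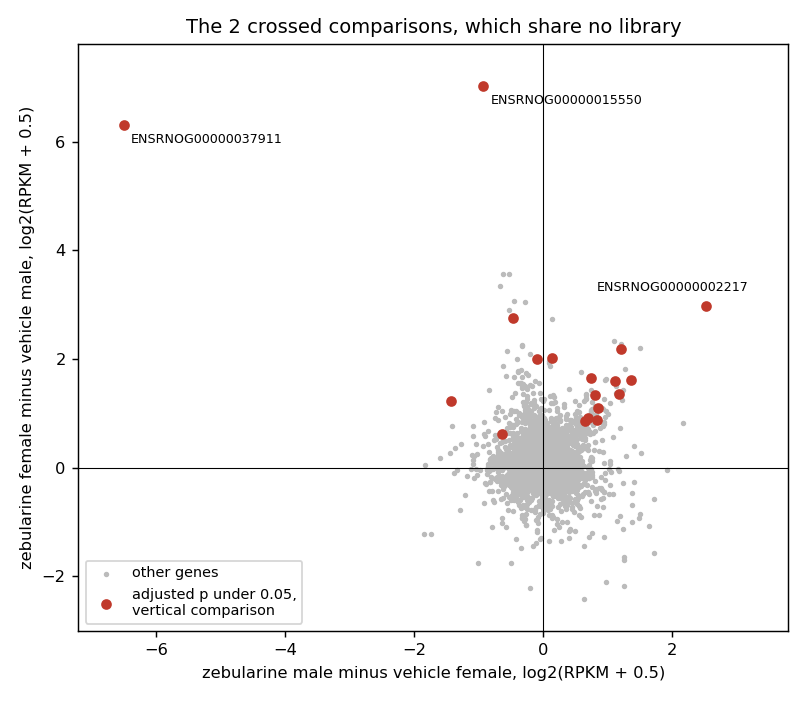
Each point is a gene, with its log2 difference of zebularine females from vehicle males (vertical) against that of zebularine males from vehicle females (horizontal), for 15465 genes that passed both level filters. Of the 18 genes that passed on the vertical axis (red), 12 lie to the right of 0 and 6 to the left, and ENSRNOG00000037911 lies far to the left at -6.50.

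The crossed pair on its own held few differences. Of 15690 genes, 2 were lower in zebularine males than in vehicle females, ENSRNOG00000037911 and ENSRNOG00000006186, or 0.0127%, and none was higher by limma with Benjamini-Hochberg adjustment. Without adjustment, 914 genes had p under 0.05 upward and 736 downward. Limma-voom on recovered reads called 2. Over the 15465 genes, the log2 differences of the crossed comparisons showed a Pearson r of -0.03 and a Spearman rho of -0.01, taken over genes that are not independent of each other. Among the 30 genes with an unadjusted p under 0.001 and higher in zebularine males, 25 were higher in zebularine females than in vehicle males, by a median log2 difference of 0.81. At an unadjusted p under 0.01 this was 159 of 251, by a median of 0.03. Among the 20 lower at p under 0.001, 13 were higher in zebularine females than in vehicle males, by a median of 0.02. The 30 include most of the 11 genes described above, and the 20 include the 3 that kept the order of the sexes. These counts are therefore not separate from the 18 genes. Over all tested genes, 51.3% were higher in zebularine females than in vehicle males. The count of 2 was 1 without vehicle female replicate 1 or 3, 5 without zebularine female replicate 1 and 20 without zebularine female replicate 3, of which 16 were higher in zebularine males.

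On the lower side no gene passed. Without adjustment, limma gave p under 0.05 to 184 genes lower in zebularine females than in vehicle males, or 1.17%, and to 869 higher ones, or 5.51%, which together are 6.68% of those tested. Limma-voom on recovered reads called 0 lower genes. Lower genes were called with array weights (2), with no filter on low values (1), at a threshold of 0.10 (1), without zebularine female replicate 1 (2) and without zebularine male replicate 1 (1). The smallest p belonged to ENSRNOG00000035049, a gene model of 94 bases, with 1 read in each zebularine female library and 4, 7 and 4 reads in vehicle males (limma adjusted p = 0.0908). Its reads gave a ratio of 0.242 to vehicle males, with an exact 95% interval from 0.0448 to 0.854 for counting error only. ENSRNOG00000043790, of 80 bases, followed with 3, 3 and 2 reads against 7, 8 and 9, a ratio of 0.403 with an interval from 0.156 to 0.926 (limma adjusted p = 0.118). Both rest on few reads. The libraries did not overlap in either, as in 615 genes downward, or 3.9% of those tested. Both genes were picked by their p, and the intervals are not adjusted for that choice.

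In the values as deposited, higher genes outnumbered lower ones most among genes of low level. Genes were ranked by their mean RPKM over the 12 libraries and divided into 4 equal classes. In the lowest class, 523 genes had all zebularine female libraries above all vehicle male libraries and 116 had them below. The counts were 317 and 143 in the next class, 235 and 157 in the class above, and 127 and 199 in the highest class, where the order turned round. After quantile normalization the counts were 371 and 283 in the lowest class and 138 and 160 in the highest, and after median-ratio scaling 509 and 130, and 91 and 295. Of the 18 genes that passed, 11 belonged to the lowest class and 4 to the highest.

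**Figure D4:**
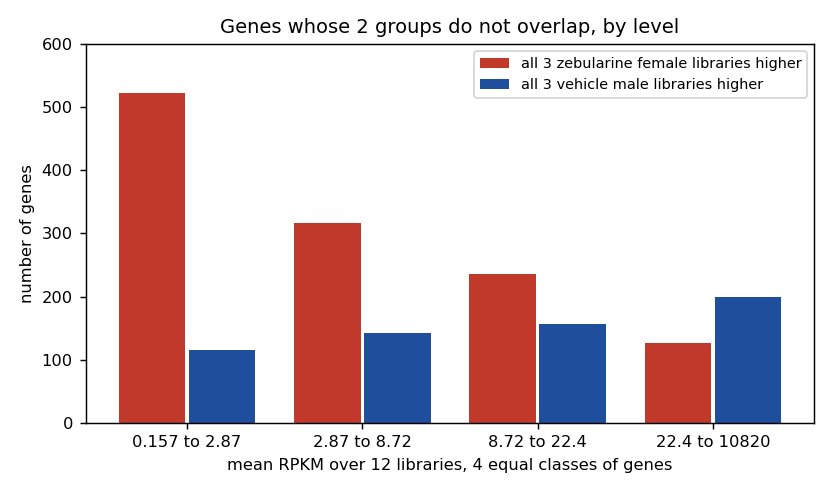
Number of genes whose 3 zebularine female libraries all lie above (red) or below (blue) the 3 vehicle male libraries, in 4 equal classes of genes by mean RPKM over 12 libraries, from the values as deposited. Red falls from 523 to 127 from the lowest to the highest class, and blue rises from 116 to 199.

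At an unadjusted p under 0.05 the share of higher genes was 86.7%, 85.6%, 76.2% and 66.9% from the lowest to the highest class as deposited. After quantile normalization it was 69.1%, 66.5%, 64.8% and 69.9%, with no fall from the lowest to the highest class. Over all classes it was 82.5% as deposited, 75.6% after median-ratio scaling, with 57 higher and 73 lower in the highest class, and 67.8% after quantile normalization. Without zebularine female replicate 3 there were 418 higher and 149 lower genes at that level, or 73.7% higher.

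Most genes were measured well enough to bound their difference. For 12121 of the 15774 genes, or 76.8%, the 95% interval of the difference between zebularine females and vehicle males lay within 1.5-fold to either side. The share was 80.8% between vehicle females and vehicle males and 77.3% between zebularine females and vehicle females, comparisons that share libraries with the first. At the median gene the interval reached 1.18-fold to either side. Differences of at least 2-fold were estimated for 159 genes upward, or 1.01%, and 45 downward, or 0.285%. Between the vehicle groups these counts were 23, or 0.147%, and 26, or 0.166%. The zebularine female mean includes replicate 3, which alone had 646 genes at least 2-fold above the vehicle male mean and 117 below. Replicate 1 had 120 above and 135 below, and replicate 2 had 125 and 106, so the upward excess was not shared by all 3 libraries.

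The number of genes that passed depended on single libraries. It was 72 without zebularine female replicate 1, 5 without replicate 2 and 11 without replicate 3 of that group. Leaving out vehicle male replicate 1, 2 or 3 gave 7, 8 and 7, and 11 passed without zebularine male replicate 2. Without zebularine female replicate 3, 15 of the 18 genes passed the level filter. All 15 were higher in zebularine females, with unadjusted p under 0.05, and 8 passed after adjustment. Leaving out a library could not turn their direction, since the groups did not overlap in any of the 18. The libraries left had also helped to choose the genes, so these values are a description. Apart from the 3 genes that kept the order of the sexes, replicate 3 had the highest zebularine female value in 14 of the other 15. It was the highest for 42.4% of all tested genes. Fitted with only the 6 libraries compared, 3 genes passed, and with limma-voom on recovered reads 34 passed, 17 of them among the 18.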

How the data were processed

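The authors deposited RPKM for 29516 Ensembl gene identifiers per library, per the file names; TopHat is named in the submitters' processing notes. Read counter, genome build, annotation and strand setting are not given in the sources available to this work, so overlapping, antisense or near-identical genes may share reads. Whole reads, depths and gene model lengths were recovered from the RPKM steps: 100.0% of genes above 0 gave reads whole within 0.01, trivially so for 1386 genes seen in 1 library.

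Genes with at least 0.5 RPKM in 3 of the 6 libraries of a comparison were kept. log2(RPKM + 0.5) was fitted with limma 3.58.1 (R 4.3.3; eBayes with trend) as 4 group means over 12 libraries, with two-sided p-values and Benjamini-Hochberg adjustment over every gene kept. This scale understates changes of low genes. The fit was tested on simulated data. There, genes with few reads were not among those changed and no library stood apart, so the test does not cover either case. Figures used Python 3.11.15 and matplotlib 3.10.9.

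Of the identifiers, 0 matched the symbol table (RefSeq, GRCr8), so the 20 gene lists are not analysed here and no sequence is shown. Without symbols, named genes are at most 2 per direction between zebularine females and vehicle males (the largest log2 differences among genes that passed, else the smallest p, with either group's mean at 1 RPKM or more) and the genes that passed between the vehicle groups. Others are said to have been singled out. Members and lists were chosen with earlier results of these data known. Alternatives are other pseudocounts, filters, scalings, variance models, fits and thresholds, and leaving out each library. Distances without the genes that passed, and non-overlap by level under other scalings, were added after seeing the data.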

Additional observations from a re-analysis of the deposited data

How the results depend on the processing

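For zebularine females against vehicle males, where 18 genes passed, the count was 67 with array weights (65 higher), 34 with limma-voom on recovered reads, 57 at an adjusted p threshold of 0.10, 3 with only the 2 groups compared and from 5 to 72 without 1 library. With the replicate block it was 9, all among the 18. Same-numbered libraries of the compared groups had deviations correlated at -0.12, -0.03 and 0.03, so the numbers were not taken as pairs. In the crossed pair these correlations were 0.33, 0.04 and 0.21, against values from -0.27 to 0.09 for unlike numbers. Between the vehicle groups they were 0.21, -0.03 and -0.12. For zebularine males against vehicle females, where 2 passed, 4 passed with the low-value filter dropped, 4 after quantile normalization, 8 with array weights, 9 at the threshold of 0.10 and from 1 to 20 without 1 library. For the vehicle groups, where 2 passed, it was 5 with no filter, 1 with only the 2 groups compared and from 1 to 2 without 1 library. Without a vehicle female library ENSRNOG00000037911 had too few libraries above the minimum to be tested. The mean distance of 0.403 was 0.547 at a pseudocount of 0.1 and from 0.329 to 0.412 without 1 library, with the level filter reapplied to the libraries left, and 0.392 without the genes that passed. The number of genes with an interval within 1.5-fold ran from 11303 to 12186 without 1 library. It was 11252 at a pseudocount of 0.1, 12984 at a pseudocount of 1 and 11243 with limma-voom on recovered reads. None of the 8 named genes followed through the alternatives changed direction. ENSRNOG00000018215, described below, was not followed through them. ENSRNOG00000015550 and ENSRNOG00000006186 passed in all 24 alternatives and ENSRNOG00000037911 in the 21 that tested it. ENSRNOG00000024382 failed to pass in 1 of 24. ENSRNOG00000035049 passed in 2 of 21 and ENSRNOG00000043790 in 1 of 24. Genes under about 3 reads per library are beyond what this depth can resolve.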

Other observations

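ENSRNOG00000018215, singled out after its values were seen, was the 1 gene below 0.1 RPKM in every vehicle male library and at 0.5 RPKM or above in every zebularine female library. It stood at 0.0524, 0.0782 and 0.0403 RPKM in vehicle males and at 1.18, 2.54 and 28.4 RPKM in zebularine females. Its reads in zebularine female replicates 1, 2 and 3 numbered 104, 255 and 2515. Vehicle female replicate 3 had 1.03 RPKM, against 0.114 and 0.0889 RPKM in the other vehicle females, and zebularine males lay between 0.0687 and 0.166 RPKM. With such a spread the log2 difference of 3.25 ± 0.81 (SE) did not pass (limma adjusted p = 0.215). The genes that met the opposite criterion had at most 4 reads in any library.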
